A study of Homo sapiens with 18 samples.

Results

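Extracellular vesicles (EVs) released by ATG12-/- HEK293T cells were compared with EVs of wild-type HEK293T cells, 3 libraries against 3, out of 18 libraries in the series. The libraries were chosen by their labels alone. HEK293T is an established human embryonic kidney line. All cells of the study, wild type included, were kept without serum for 24 h before EVs and cells were collected. The knockout group came from 1 clone, D9, so the effect of the ATG12 alleles and the properties of this clone cannot be told apart. EVs of ATG7-/- cells (1 clone, F2, 3 libraries) and the cells of wild type and of clone D9 (3 libraries each) were used as side groups, under the same serum-free culture. The labels call the libraries of a group biological replicates without naming separate cultures, so p-values measure the spread between these libraries. The labels also mark every library as large RNA without giving a size cut, so how fully shorter RNAs were recovered is unknown. The series text frames the question as whether large RNAs reach EVs through the LC3 conjugation machinery.

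ATG12 is a ubiquitin-like protein. ATG7 activates it, ATG10 transfers it to ATG5, and the ATG12-ATG5 conjugate, bound to ATG16L1, directs the attachment of LC3 and GABARAP proteins to membrane lipids. This lipid attachment is best known for its role in autophagosome formation, and it also takes part in loading some RNA-binding proteins and small noncoding RNAs into EVs. EV RNA from cultured cells is usually rich in short structured RNAs made by RNA polymerase III, such as 7SL, 7SK, Y RNA and vault RNA, beside fragments of mRNA and ribosomal RNA.

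Among the features that passed the test in EVs were a mitochondrial tRNA and annotated transcripts with an mRNA partner. These transcripts lie opposite, or read as the reverse complement of, mRNAs of the ribosomal protein genes RPS3A and RPL23A and of TPT1. The sequences of the tRNA and of these transcripts are shown first. MT-TA, the mitochondrial alanine tRNA (chrM:5587-5655, minus strand, GRCh38), is shown whole, since it was listed at 0 in all 3 ATG12-/- EV libraries. Capitals mark its anticodon.
MT-TA: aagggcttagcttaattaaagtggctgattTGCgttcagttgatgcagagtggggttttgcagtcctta
The next pair of stretches shows what lies under the labels SH3D19 and AL138963.3. The SH3D19 stretch (chr4:151103020-151103099, minus strand) belongs to a processed transcript of 503 nt that held nearly all of this gene's TPM, and its capitals are the bases opposite a coding exon of RPS3A, a small-subunit ribosomal protein gene. The AL138963.3 stretch (chr13:45340125-45340204, plus strand) is from an annotated antisense transcript, and its capitals are the bases opposite a coding exon of TPT1, which encodes the translationally controlled tumour protein.
SH3D19: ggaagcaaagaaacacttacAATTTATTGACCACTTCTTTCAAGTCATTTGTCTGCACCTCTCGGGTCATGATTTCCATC
AL138963.3: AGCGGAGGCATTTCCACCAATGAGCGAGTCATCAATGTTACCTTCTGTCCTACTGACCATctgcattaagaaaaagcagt
AD000091.1 is a processed pseudogene of 287 nt on chromosome 19. The reverse complement of its annotated transcript matched RPL23A, a large-subunit ribosomal protein gene on chromosome 17, at 97.4% identity over 272 nt. The lines below give a coding stretch of RPL23A (chr17:28720793-28720882, plus strand) and the matching stretch opposite AD000091.1 (chr19:15611764-15611853, plus strand), with the 1 base in 90 that differs in capitals.
RPL23A: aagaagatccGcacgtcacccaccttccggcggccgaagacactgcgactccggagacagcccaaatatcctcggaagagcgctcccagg
AD000091.1, reverse complement: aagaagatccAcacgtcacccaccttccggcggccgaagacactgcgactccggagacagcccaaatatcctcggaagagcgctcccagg

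The library kit marks the strand, but the strand setting used for quantification is not given in the sources used here. Reads of an annotated feature and of an mRNA opposite to it therefore cannot be told apart below, and values of near-identical copies are uncertain one by one. The sequences and coordinates are those of GENCODE 29 on GRCh38.

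Values are TPM, a unit in which each value is a length-scaled share of its library. The number of reads behind them is unknown, and they cannot tell fewer vesicles from less RNA per vesicle. In wild-type EV libraries 13957 to 14663 genes reached 1 TPM, and in ATG12-/- EV libraries 13255 to 13501 did, so the ranges did not overlap. Correlations of log2 values between libraries, across features and as a description only, ran from 0.626 to 0.636 within wild type, from 0.64 to 0.645 within the knockout and from 0.617 to 0.635 between them. No library stood apart from its group. Of 10 genes associated with HEK293T identity, CKB, the brain-type creatine kinase, was the most abundant (527 to 748 TPM over the 6 libraries), and 9 were tested. The others were far lower. In wild-type EVs NEFM had 61.2, 63.5 and 52.9 TPM, INA 0, 0.623 and 3 TPM and EYA1 1.1, 0 and 0 TPM. PAX2 was listed at 0 in all 3 wild-type libraries. The summed level of the 10 genes, mostly CKB, was 803 to 880 TPM in wild-type EVs and 626 to 811 TPM in ATG12-/- EVs. Of 15 markers of blood, liver, stromal and endothelial cells, 6 were listed at 0 in all 6 libraries, among them HBB, ALB and VWF. Their sums were 21 to 46.4 TPM in wild type and 8.87 to 35.5 TPM in the knockout. DCN, the matrix proteoglycan decorin, had 32.4, 4.59 and 5.75 TPM in wild-type EVs and was listed at 0 in the knockout ones, with adjusted p = 0.312. The part of these markers in the results below was not tested.

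ATG12 itself had low TPM in EVs. It had 0.844, 9.54 and 22.6 TPM in wild-type EVs, and in ATG12-/- EVs it was listed at 0, at 0.858 and at 0. Wild-type library 1 lay just below the highest knockout library, so the groups overlapped, and the log2 fold change of -2.57 ± 1.10 (SE, n = 3 per group) had adjusted p = 0.619. In cells ATG12 had 10.1, 7.61 and 13.5 TPM in wild type and 6.71, 9.18 and 5.18 TPM in clone D9, a log2 fold change of -0.48 with adjusted p = 0.597. The labels do not say which bases of ATG12 were altered, so its RNA level checks nothing about the clone. ATG7, which encodes the activating enzyme of the pathway, had 19.4, 14.9 and 13.3 TPM in wild-type EVs and 13.8, 20.8 and 14.1 TPM in ATG12-/- EVs.

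Of 17076 features tested, 18 passed the threshold of adjusted p under 0.05 (0.105%), with 11 higher (0.0644%) and 7 lower (0.041%) in ATG12-/- EVs. At unadjusted p under 0.05 there were 1356 (7.94%). Only 2 of the 18 are annotated as protein-coding, although 11976 of the tested features are. The transcript that held most of a feature's TPM had a median length of 377 nt among the 18 and of 767 nt among all features tested. A mean of at least 1000 TPM over the 6 libraries was reached by 8 of the 18. By contrast, 4 were listed at 0 in every wild-type EV library and another 4 at 0 in every ATG12-/- EV library. The count rested on few libraries: it was 7 without wild-type library 1, 10 without wild-type library 3, 5 without ATG12-/- library 1 and 6 without ATG12-/- library 2. MT-TA, SH3D19 and AD000091.1 were past the threshold in all 6 fits that left out 1 library. Features were tested where at least 3 of the 9 EV libraries reached 1 TPM. RF00017 on chromosome 13, AL390061.1, FLJ46906 and HLA-DQB1-AS1 reached it in the ATG12-/- libraries alone and AC008740.1 in the wild-type ones alone. These 5 entered the test only through the group where they are high, so no p is given for them, their part in the count of 18 supports nothing, and with a library of that group left out they were not tested. In both fits without a mean-variance trend the calls of MT-TA and AC012309.2 remained. Of the 8 features with a mean of at least 1000 TPM all but MT-TA lost theirs in these fits. The calls of RF00017 on chromosome 13 and AL390061.1 also remained, which supports nothing, since both entered through their high group alone.

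**Figure D1:**
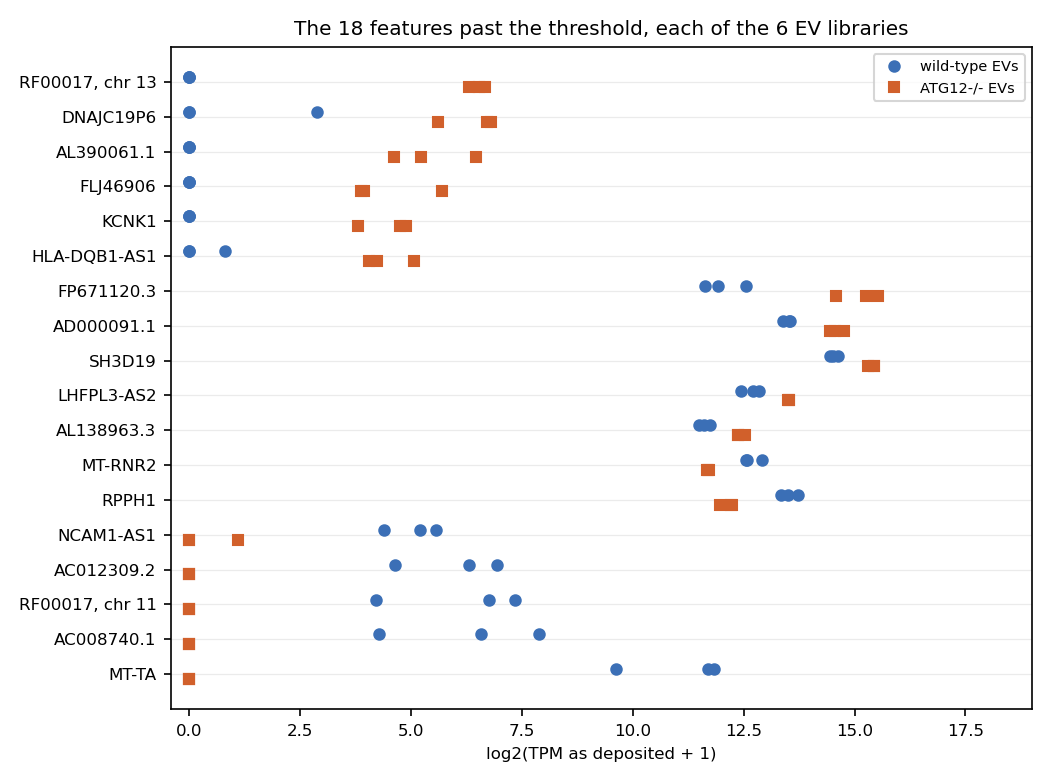
Values of the 18 features past the threshold in each of the 6 EV libraries, on the x axis as log2(TPM as deposited + 1), with circles for wild-type and squares for ATG12-/- EVs. The libraries of the 2 groups do not overlap for any of the 18, and MT-TA, with 791 to 3639 TPM in wild type, lies at 0 in all ATG12-/- libraries.

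**Figure D2:**
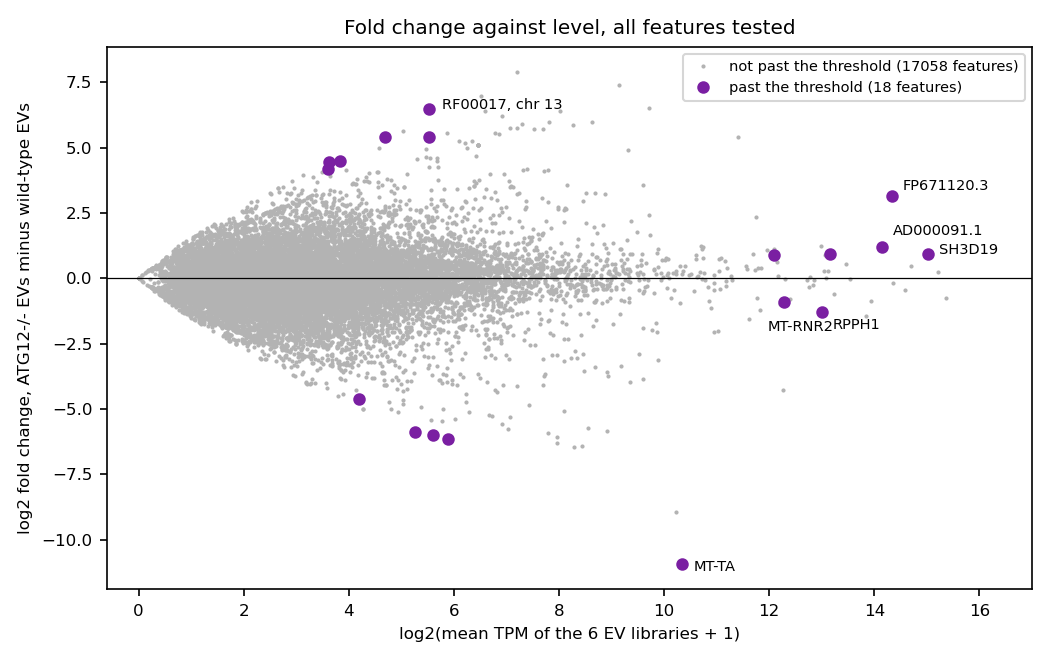
Log2 fold change (ATG12-/- minus wild-type EVs, on log2 of scaled TPM plus 1) against log2 of the mean TPM of the 6 libraries plus 1, for 17076 features, with the 18 past the threshold as large points. Spread is widest among features of low and middle level, and 8 of the 18 lie above a mean of 1000 TPM.

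Mitochondrially encoded RNAs held the feature with the smallest adjusted p. The mitochondrial genome encodes 13 mRNAs of the respiratory chain, 22 tRNAs and 2 ribosomal RNAs. MT-TA had 791, 3304 and 3639 TPM in wild-type EVs and was listed at 0 in all 3 ATG12-/- EV libraries. No fold is given against a group at 0, and the test gave adjusted p = 0.000221. Of the 22 mitochondrial tRNAs, 11 were above 0 in every wild-type EV library, and MT-TA was the 1 among these that was listed at 0 throughout the knockout. Another 5 were listed at 0 in all 6 libraries, and 9 were at 0 in 1 or 2 knockout libraries, so zeros were common in this class of very short transcripts. The libraries are labelled as large RNA, and whether RNAs this short were recovered evenly was not tested. MT-TN, whose gene lies next to MT-TA, was one of those at 0 in all 6.

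MT-RNR2, the 16S ribosomal RNA of the mitochondrial ribosome, fell in ATG12-/- EVs. It had 6152, 6019 and 7694 TPM in wild-type EVs and 3293, 3372 and 3338 TPM in ATG12-/- EVs. Every knockout library was below every wild-type library, with a log2 fold change of -0.91 ± 0.13 and adjusted p = 0.0471, and the call was lost whenever 1 library of either group was left out. MT-RNR1, the 12S RNA, had at most 16.6 TPM in any of the 6 libraries, so 16S made up nearly all of the mitochondrial ribosomal RNA signal. The arginine tRNA MT-TR was the most abundant mitochondrial tRNA, with 23160, 22073 and 18964 TPM in wild-type EVs and 4821, 8920 and 9846 TPM in ATG12-/- EVs. Its groups did not overlap, but it missed the threshold (log2 fold change -1.43 ± 0.27, adjusted p = 0.127). MT-TI, the isoleucine tRNA, had 527, 1802 and 110 TPM against 0, 453 and 0, so its groups overlapped.

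Among mitochondrial mRNAs 10 of 13 had a lower value in ATG12-/- EVs and none passed the threshold. Their median log2 fold change was -0.40, beside -0.08 for all features tested, and 46.2% of all features tested had a higher value. In 3 of the 13 the groups did not overlap, all lower, beside 6.99% of all features tested that did not overlap and were lower. MT-CO1, a catalytic subunit of cytochrome c oxidase, had 545, 565 and 785 TPM in wild-type and 329, 376 and 283 TPM in ATG12-/- EVs. MT-CO3, of the same complex, had 103, 81.8 and 81.3 TPM against 20.5, 31.7 and 56.6 TPM. MT-ND5, a subunit of complex I, had 159, 125 and 155 TPM against 104, 73.6 and 69.9 TPM. Adjusted p was 0.375 for MT-CO1, 0.525 for MT-CO3 and 0.601 for MT-ND5.

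RPPH1, the RNA subunit of RNase P, which trims the leader of precursor tRNAs, fell in ATG12-/- EVs. It had 10328, 13561 and 11619 TPM in wild-type EVs and 4026, 4868 and 4785 TPM in ATG12-/- EVs. The highest knockout library was far below the lowest wild-type library, the log2 fold change was -1.30 ± 0.14 and adjusted p was 0.014. Of the 13 tested members of RNase P and RNase MRP, RPPH1 was the 1 past the threshold, and 8 of the 13 had higher values in the knockout. RMRP, the related RNA of RNase MRP, had 140, 86.9 and 159 TPM in wild-type and 466, 240 and 78.6 TPM in ATG12-/- EVs, with overlapping groups. RPPH1 was not past the threshold without wild-type library 3 or without ATG12-/- library 1 or 2. Its adjusted p was 0.755 and 0.545 in the fits without a trend, 0.0664 with no filter on low values, 0.0519 on the 6 libraries of the compared groups and 0.0536 with a replicate block.

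7SK and 7SL showed lower values that missed the threshold. RN7SK, a scaffold that holds the elongation factor P-TEFb inactive, had 17602, 23178 and 21202 TPM in wild-type EVs and 9968, 12037 and 10433 TPM in ATG12-/- EVs. The groups were well separated, with a log2 fold change of -0.85 ± 0.13 and adjusted p = 0.068. Counted with its near-identical copies (at least 95% identity over at least 80% of the transcript), 7SK summed to 45381, 52473 and 50874 TPM in wild type and 27515, 34394 and 31545 TPM in the knockout, a ratio of 0.628. RN7SL1 and RN7SL2 both encode 7SL, the RNA of the signal recognition particle, and over their whole length their transcripts differ by 4 substitutions and 1 gapped base. RN7SL2 had 50809, 59058 and 53164 TPM in wild-type and 29553, 33391 and 27949 TPM in ATG12-/- EVs, with adjusted p = 0.0736. RN7SL1 had 35876, 29890 and 42535 TPM against 42449, 41000 and 36156 TPM, and its groups overlapped. The sum over the 7SL copies was 88512, 91543 and 98322 TPM in wild type and 74505, 78289 and 65391 TPM in the knockout, with no overlap and a ratio of 0.784. With 3 libraries against 3 the exact two-sided permutation test of such a sum cannot give less than 0.1, the value found for both sums.

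Y RNAs, small partners of the Ro60 protein, had higher values. RNY1 had 4288, 3941 and 7056 TPM in wild-type EVs and 12278, 9309 and 12001 TPM in ATG12-/- EVs. RNY3 had 0, 76.7 and 0 TPM against 107, 171 and 170 TPM. Neither pair of groups overlapped, and adjusted p was 0.335 for RNY1 and 0.405 for RNY3. RNU2-1, the U2 spliceosomal RNA, had 94.9, 291 and 259 TPM in wild type and 40.1, 114 and 78.3 TPM in the knockout, with overlapping groups. These RNAs are shorter than 200 nt, where values varied most: the median standard error was 1.97 for features up to 200 nt and 0.63 in the class of the longest features.

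Among the 5 features past the threshold that rose and had a mean of at least 1000 TPM, 3 were opposite to, or the reverse complement of, mRNAs named above: SH3D19, AD000091.1 and AL138963.3. SH3D19 had 25503, 22338 and 23267 TPM in wild-type EVs and 44528, 40201 and 44114 TPM in ATG12-/- EVs. All knockout libraries were higher, the log2 fold change was 0.93 ± 0.08 and adjusted p was 0.0032. The RPS3A mRNA opposite to it was not past the threshold (log2 fold change 0.35, adjusted p = 0.778). SH3D19 encodes an adaptor protein, but the transcript of 503 nt that carried the values is annotated as a processed transcript.

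AD000091.1 had 10744, 11763 and 11967 TPM in wild-type EVs and 22510, 24103 and 27791 TPM in ATG12-/- EVs. The lowest knockout library was well above the highest wild-type one, with a log2 fold change of 1.18 ± 0.09 and adjusted p = 0.00158. Without a mean-variance trend in the fit, adjusted p was 0.816 for SH3D19 and 0.794 for AD000091.1 with array weights, and 0.667 and 0.599 with equal weights, at the same fold changes. RPL23A, whose reverse complement AD000091.1 resembles, had a log2 fold change of 0.25 with adjusted p = 0.942. It was scarce, at 16.7, 55.6 and 25.7 TPM in wild-type and 27.4, 46.8 and 27.8 TPM in ATG12-/- EVs. AL138963.3 had 3402, 3114 and 2903 TPM in wild-type and 5343, 5342 and 5956 TPM in ATG12-/- EVs. It rose by 0.90 ± 0.11 on the log2 scale with adjusted p = 0.033, and it was past the threshold in none of the 6 fits that left out 1 library. TPT1, opposite to it, had a log2 fold change of 0.17 with adjusted p = 0.93.

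LHFPL3-AS2, a noncoding transcript of 923 nt on chromosome 7, had 6740, 5550 and 7322 TPM in wild-type EVs and 11835, 11848 and 11618 TPM in ATG12-/- EVs. The knockout libraries lay close together and above all wild-type ones, with a log2 fold change of 0.93 ± 0.12 and adjusted p = 0.0337, and the call was lost without wild-type library 1 or any 1 of the ATG12-/- libraries. FP671120.3, an intergenic noncoding transcript also of 923 nt on chromosome 21, showed the largest rise among abundant features past the threshold. It had 6052, 3147 and 3855 TPM in wild-type EVs and 47492, 38989 and 24472 TPM in ATG12-/- EVs. The log2 fold change was 3.16 ± 0.46 and adjusted p was 0.0471, and no fit that left out 1 library kept the call. Summed with its near-identical copy FP671120.4 it gave 6651, 3177 and 3855 TPM against 49613, 39775 and 24744 TPM. FP671120.3 lies at chr21:8210384-8211306, near the hairpin MIR3687-1 of the ribosomal DNA region (chr21:8208844-8208904), and was not compared with ribosomal RNA. In cells the same feature varied widely within groups, with 1523, 1341 and 16526 TPM in wild type and 19948, 549 and 1336 TPM in clone D9.

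The remaining features past the threshold were scarce and were mostly listed at 0 in 1 group. RF00017 on chromosome 13 (ENSG00000277794), a 273 nt member of the Rfam family of signal recognition particle RNA, was listed at 0 in all wild-type EV libraries and had 101, 92.0 and 78.6 TPM in ATG12-/- EVs. Another feature of the same family, on chromosome 11 (ENSG00000276918, 298 nt), went the other way, from 107, 162 and 17.5 TPM to 0 in all 3, with adjusted p = 0.0471. AL390061.1, FLJ46906 and KCNK1 were also listed at 0 in every wild-type EV library. KCNK1, a potassium channel gene, had 26.2, 28.7 and 13.1 TPM in ATG12-/- EVs, AL390061.1 had 23.7, 88.3 and 36.3 TPM, and FLJ46906 had 14.5, 13.6 and 51.3 TPM. DNAJC19P6, a processed pseudogene, had 0, 6.39 and 0 TPM in wild-type and 111, 48.2 and 104 TPM in ATG12-/- EVs. For HLA-DQB1-AS1 the values were 0, 0.766 and 0 TPM against 15.7, 32.8 and 18 TPM. On the lower side, AC012309.2, antisense to ZNF420, had 24.2, 122 and 78.9 TPM in wild-type EVs and was listed at 0 in the knockout. AC008740.1, a pseudogene with near-identical stretches in 4 other genes, went from 237, 18.5 and 94.4 TPM to 0 in all 3. NCAM1-AS1 had 35.9, 20.1 and 46.2 TPM against 0, 0 and 1.14 TPM. Adjusted p was 0.014 for AC012309.2, 0.0412 for NCAM1-AS1 and 0.0471 for KCNK1 and DNAJC19P6. KCNK1 was past the threshold in none of the 6 fits that left out 1 library. AL390061.1, FLJ46906, HLA-DQB1-AS1 and AC008740.1 were each tested in 3 of these fits and past the threshold in none. RF00017 on chromosome 13 was past the threshold in the 3 that tested it. This supports nothing, since it entered them through the ATG12-/- libraries alone. The call of AC012309.2 was lost without wild-type library 3 or ATG12-/- library 1 or 2. DNAJC19P6 kept its call when wild-type library 2 was left out, NCAM1-AS1 when ATG12-/- library 3 was and RF00017 on chromosome 11 when wild-type library 3 was, and each lost it in the other 5 fits.

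The 100 features with a mean of at least 1000 TPM held 54.5% of TPM in wild-type EVs and 56.1% in ATG12-/- EVs, and were measured best, with a median standard error of 0.19. Their groups did not overlap in 47.0% of cases (30 higher, 17 lower), beside 11.3% of all features tested. Features opposite a ribosomal protein mRNA (at least 95% identity over at least 100 nt) numbered 9. Of these, 8 had higher values in ATG12-/- EVs, 7 did not overlap and 2 were past the threshold, and together they went from 8.02% to 12.3% of TPM. SH3D19 and AD000091.1 made up most of that gain. The 9 were not independent: AD000091.1, AC005884.2, AC112491.1 and AC010761.1 all match RPL23A. Of these, AC005884.2 and AC112491.1 were level, with log2 fold changes of -0.06 and 0.06. AL354740.1, the reverse complement of RPL35 over 348 nt, had 23903, 20760 and 23487 TPM against 28810, 28530 and 33584 TPM, with adjusted p = 0.0911. ATG10 belongs here too: it encodes the enzyme that conjugates ATG12 to ATG5, but its leading transcript lies opposite RPS23 over 376 nt. ATG10 had 1991, 1656 and 1829 TPM in wild-type and 2677, 2701 and 2821 TPM in ATG12-/- EVs, with a log2 fold change of 0.66 ± 0.13 and adjusted p = 0.163. The 29 features opposite other coding transcripts had a median log2 fold change of 0.15 and an almost level share, 7.72% against 7.88%. Another 17 features of other kinds without such a partner, FP671120.3 and LHFPL3-AS2 among them, had 13 higher and 4 lower values. Their median was 0.53, beside 0.49 for the 9 above, and their share went from 5.84% to 10.9% of TPM. Most of that gain was FP671120.3, with means of 4351 TPM in wild type and 36984 TPM in the knockout. The 17 also hold the pseudogenes RPS28P7 and AC026403.1, near-identical to stretches of RPS28 and RPLP0. Higher values were thus not particular to features opposite ribosomal protein mRNAs. The 19 small noncoding RNAs went from 20.5% to 14.7% of TPM, with 7 not overlapping and lower and 1 not overlapping and higher. RNA5S1, a 5S ribosomal RNA of 119 nt, was grouped with the 17 features of other kinds and not with these 19. It had 0, 897 and 616 TPM in wild-type and 9595, 4383 and 882 TPM in ATG12-/- EVs, with overlapping groups and adjusted p = 0.602. In the split into RNA classes below it counts as small noncoding RNA. The 6 mitochondrially encoded features went from 3.83% to 1.69%.

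**Figure D3:**
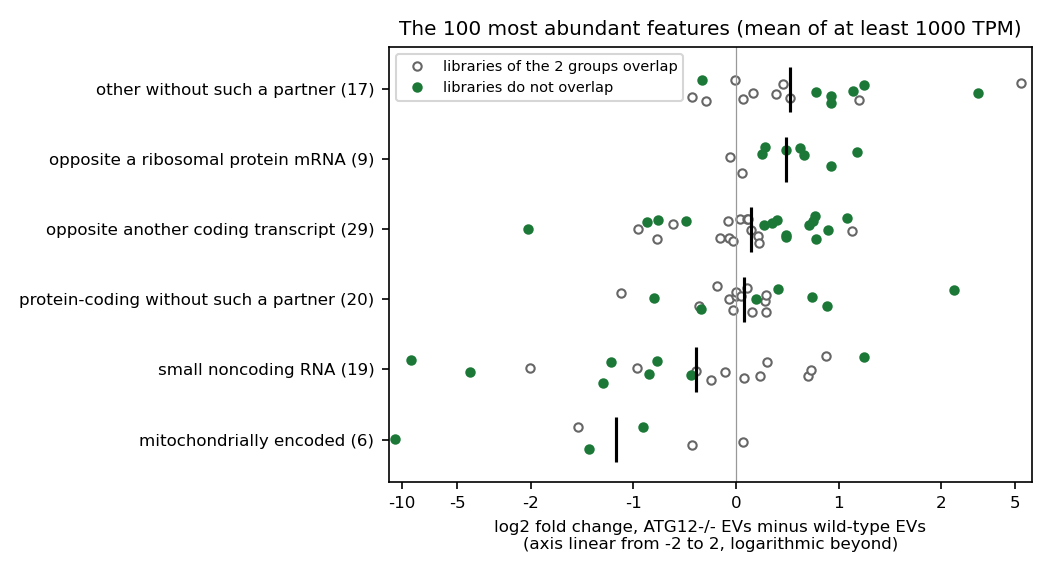
Log2 fold change (ATG12-/- minus wild-type EVs) of the 100 features with a mean of at least 1000 TPM, in rows by annotation group with the number of features, where filled points are features whose libraries do not overlap between the groups and vertical bars are medians. The x axis is linear from -2 to 2 and logarithmic beyond. The 9 features opposite a ribosomal protein mRNA lie at or above 0 but for 1 at -0.06. Their median is 0.49, beside 0.53 for the 17 features of other kinds without such a partner. The 6 mitochondrially encoded ones have a median of -1.17.

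The TPM of each library were also split into 10 RNA classes. Mitochondrial tRNA held 3.55%, 3.93% and 3.72% of TPM in wild-type EVs and 1.79%, 1.73% and 1.58% in ATG12-/- EVs. Mitochondrial ribosomal RNA held 0.663% ± 0.0935 (SD, n = 3) in wild type and 0.334% ± 0.00341 in the knockout. The 7SK class went from 5.28% ± 0.383 to 3.38% ± 0.372, and the 7SL class from 11.1% ± 0.511 to 8.93% ± 0.663. Other noncoding RNA, the class of FP671120.3, went the other way, from 9.34%, 8.08% and 9.11% to 14.4%, 13.9% and 12.8%. FP671120.3 alone went from a mean of 4351 TPM to 36984 TPM, in a library total of 1000000, so 1 feature made up most of this gain. Pseudogenes, the class of AD000091.1, went from 6.89% ± 0.148 to 8.97% ± 0.409. Most of that gain was AD000091.1, with means of 11491 TPM in wild type and 24801 TPM in the knockout. Nuclear protein-coding genes held 36.9% ± 0.343 in wild type and 38.5% ± 0.85 in the knockout. Antisense transcripts held 16.5% ± 0.483 and 16.3% ± 0.507. In 9 of the 10 classes the libraries of the groups did not overlap, and the exact two-sided permutation test gave 0.1, the smallest value that 3 against 3 allows, and 0.111 after adjustment over the 10 classes, so no class could pass 0.05. Shares of 1 library sum to a fixed total, so a lower share of some classes raises the others.

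**Figure D4:**
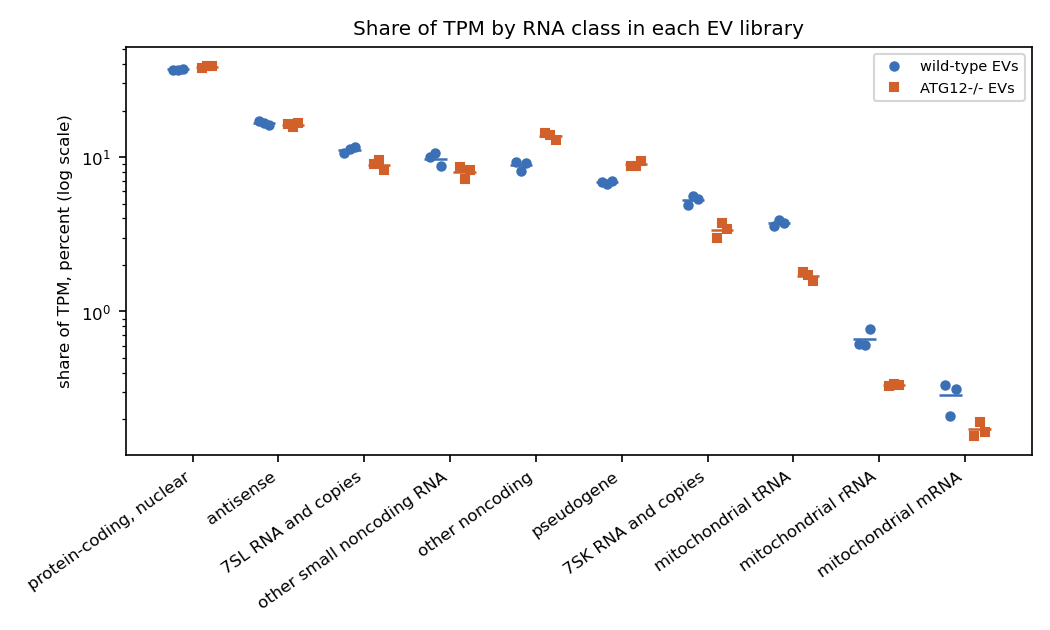
Share of TPM, in percent on a log axis, of 10 RNA classes in each EV library, with circles for wild type, squares for ATG12-/- and bars at the means of 3 libraries. Mitochondrial tRNA, mitochondrial ribosomal RNA, 7SK and 7SL lie lower in all ATG12-/- libraries, and other noncoding RNA and pseudogenes lie higher.

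Among features that missed the threshold, 20 were taken with the smallest p and a mean of at least 100 TPM in the higher group. They comprised 13 with higher and 7 with lower values, 10 were protein-coding, and adjusted p ran from 0.068 to 0.139. RAB13, a small GTPase of membrane trafficking, had 306, 309 and 295 TPM in wild-type EVs and 621, 681 and 646 TPM in ATG12-/- EVs. Its libraries were tight within groups, with a ratio of means of 2.14 and adjusted p = 0.0736. CDR1, a gene whose locus is best known for the circular RNA made opposite to it, had 379, 354 and 377 TPM against 832, 727 and 753 TPM, with adjusted p = 0.0736. NPM1, which encodes the nucleolar chaperone nucleophosmin, had 6006, 5937 and 6794 TPM against 10547, 11810 and 10491 TPM, with adjusted p = 0.107. RPLP1, an acidic protein of the ribosomal stalk, had 828, 1000 and 1798 TPM against 4777, 7326 and 4798 TPM, with adjusted p = 0.0801. These 4 features had higher values in every ATG12-/- library than in any wild-type one. A transcript of 247 nt held 87.9% of NPM1 TPM and one of 256 nt held 98.8% of RPLP1 TPM. Reads of CDR1 and of the circular RNA opposite to it cannot be told apart here.

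ATP5PO, which encodes a subunit of the mitochondrial ATP synthase, had 0, 1.2 and 0 TPM in wild-type EVs and 50.7, 54.5 and 467 TPM in ATG12-/- EVs, most of it on a transcript of 157 nt. NEDD8, a ubiquitin-like protein gene, had 4, 18.1 and 6.84 TPM against 108, 58.1 and 415 TPM. SLC38A10, an amino acid transporter gene, had 71.8, 130 and 109 TPM against 292, 321 and 298 TPM. SLC25A44, a mitochondrial carrier gene, went the other way, with 66.0, 59.6 and 195 TPM against 4.21, 6.16 and 7.02 TPM. The groups of these 4 genes did not overlap. Adjusted p was 0.068 for ATP5PO, 0.139 for NEDD8, 0.118 for SLC38A10 and 0.0801 for SLC25A44. MIR3687-1, a hairpin annotated in the ribosomal DNA region of chromosome 21, had 10007, 14182 and 3425 TPM in wild-type and 294, 156 and 1238 TPM in ATG12-/- EVs, with adjusted p = 0.111.

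Across 37 gene lists the members past the threshold were MT-TA, MT-RNR2 and RPPH1. Each list is given below by its counts and median, beside all features tested, of which 46.2% had a higher value and whose median log2 fold change was -0.08. Groups did not overlap with higher values in 4.35% of all features and with lower values in 6.99%.

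Of the 11 tested genes of the LC3 conjugation machinery, 7 had higher values and 2 of these did not overlap. The list's sum of 1723 to 2078 TPM in wild type and 2771 to 2907 TPM in the knockout was mostly ATG10. ATG4B, a protease that trims and recycles LC3 proteins, had 0.810, 1.43 and 9.07 TPM in wild-type and 10.5, 11.1 and 26.8 TPM in ATG12-/- EVs, with adjusted p = 0.645. Of the 5 tested genes of the LC3 and GABARAP family, 4 had lower values, with a median of -1.57 and no separated groups. GABARAP had 151, 130 and 120 TPM against 134, 92.0 and 131 TPM. MAP1LC3B, which encodes LC3B, had 573, 13.5 and 10.5 TPM against 16.8, 12 and 10.3 TPM, so its lower mean came from wild-type library 1, without which its log2 fold change was 0.17. With 5 genes the family median can shift with that library, and it was not computed without it. GABARAPL1 had 77.2, 42.1 and 34.6 TPM against 4.61, 17 and 38.2 TPM. SQSTM1, the cargo receptor p62, had 61.3, 117 and 123 TPM in wild-type and 140, 217 and 182 TPM in ATG12-/- EVs, with adjusted p = 0.548. The 20 genes of autophagy initiation split into 10 with higher and 10 with lower values, and 8 of 12 tested cargo receptors had lower values.

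Genes of EV formation and of the ESCRT complexes, which bud vesicles into late endosomes, had lower values in 21 of 34 cases, with a median of -0.29 and 5 separated groups on the lower side. HGS, the ESCRT-0 subunit that binds ubiquitinated cargo, had 113, 146 and 53.8 TPM in wild-type and 39.1, 28.7 and 37.1 TPM in ATG12-/- EVs. CHMP1A, an ESCRT-III subunit, had 30.1, 21.9 and 28.3 TPM against 6.26, 8.64 and 16.7 TPM. VPS4A, the ATPase that takes ESCRT-III apart, had 55.3, 82.9 and 68.3 TPM against 41.7, 37.1 and 36.2 TPM. NSMAF, the adaptor of neutral sphingomyelinase, had 0.109, 1.52 and 0 TPM against 11.1, 2.55 and 5.63 TPM. Adjusted p for these 4 genes was 0.601 for HGS, 0.589 for CHMP1A, 0.641 for VPS4A and 0.548 for NSMAF. Of 30 RNA-binding protein genes linked to vesicle loading 15 had higher and 15 lower values, with a median of 0.05 that became -0.02 without scaling. Of 35 tested lysosomal genes 23 had lower values, with a median of -0.18. MCOLN1, a lysosomal calcium channel, had 27.1, 53.1 and 46.2 TPM against 25.6, 1.95 and 0 TPM, with adjusted p = 0.509.

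Ribosomal protein mRNAs had higher values more often than not. Of 46 large-subunit genes 33 had a higher value, with a median of 0.27, and of 31 tested small-subunit genes 20 had a higher value, with a median of 0.17. Groups did not overlap in 9 large-subunit and 6 small-subunit genes with higher values, and in 3 and 1 with lower values. Among all features tested, 4.35% did not overlap and were higher, and 6.99% did not overlap and were lower. The share not overlapping and higher was 11.7% at a mean of 100 to 1000 TPM, and larger still above that level. Whether these mRNAs differ from other features of like level was not tested. RPL41 had 262, 585 and 459 TPM in wild-type and 1003, 1635 and 1176 TPM in ATG12-/- EVs, with adjusted p = 0.172. RPL36 had 11.1, 29.6 and 25.6 TPM against 257, 377 and 129 TPM, with adjusted p = 0.242. RPS28 had 27.4, 15.5 and 80.7 TPM against 146, 182 and 184 TPM, with adjusted p = 0.266. RPS2, among the most abundant of the small subunit, had 1874, 2265 and 2061 TPM against 2524, 2550 and 2744 TPM, with adjusted p = 0.529. In cells the list medians were 0.55 and 0.62, beside 0.02 for all features tested in both EVs and cells.

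Translation factors leaned the other way in EVs, with lower values for 23 of 36 genes and a median of -0.15. EEF2, the elongation factor of translocation and one of the most abundant features, had 23483, 20583 and 24584 TPM in wild-type and 18053, 21368 and 17670 TPM in ATG12-/- EVs, with overlapping groups. The leading transcript of EEF2 was 218 nt long. EIF4A2, a helicase of initiation, had 33.9, 50.2 and 29.8 TPM against 13.5, 7.70 and 8.88 TPM, with adjusted p = 0.504. EIF3G, a subunit of initiation factor eIF3, had 274, 236 and 253 TPM against 103, 184 and 132 TPM, with adjusted p = 0.603.

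Nuclear genes of the respiratory chain had higher values in 43 of 70 cases, with a median of 0.37, where the mitochondrially encoded mRNAs had a median of -0.40. SDHB, the iron-sulfur subunit of complex II, was lower at 28.7, 71.3 and 71.3 TPM against 21.2, 11.7 and 8.52 TPM, with adjusted p = 0.393. NDUFA12, a subunit of complex I, had 0, 3.90 and 0 TPM against 7.69, 31.9 and 12.4 TPM, with adjusted p = 0.304. Of 67 tested mitochondrial ribosomal protein genes 36 had higher values, with a median of 0.16.

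Replication-dependent histone mRNAs split evenly by direction, 25 higher and 25 lower. Groups did not overlap in 6 with lower and 1 with higher values, beside 6.99% and 4.35% of all features tested. The list's sum, mostly HIST1H2BO, was 10812, 11121 and 11694 TPM in wild-type and 9420, 9224 and 8372 TPM in ATG12-/- EVs. HIST1H2BO, the most abundant of those named, had 7477, 7541 and 8742 TPM in wild-type and 5960, 6137 and 5715 TPM in ATG12-/- EVs, with adjusted p = 0.502. HIST1H2BD had 31.1, 29.5 and 4.26 TPM in wild-type EVs and was listed at 0 in the knockout, with adjusted p = 0.171. Glycolytic genes had lower values in 13 of 18 cases, with a median of -0.10. GAPDH had 604, 685 and 789 TPM against 432, 503 and 556 TPM, and ENO2, the neuronal enolase, had 39.4, 18 and 25.4 TPM against 8.91, 0.836 and 0 TPM. ACTB, cytoplasmic beta-actin, had 812, 1020.0 and 991 TPM against 667, 680.0 and 554 TPM. Adjusted p was 0.645 for GAPDH, 0.308 for ENO2 and 0.599 for ACTB. ATF4, the transcription factor of the amino acid response, had 487, 417 and 454 TPM against 690.0, 712 and 722 TPM, with adjusted p = 0.304, while 12 of the 20 genes on its target list had lower values. FTH1, the heavy chain of ferritin, had 138, 61.0 and 80 TPM against 147, 169 and 166 TPM, with adjusted p = 0.563.

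**Figure D5:**
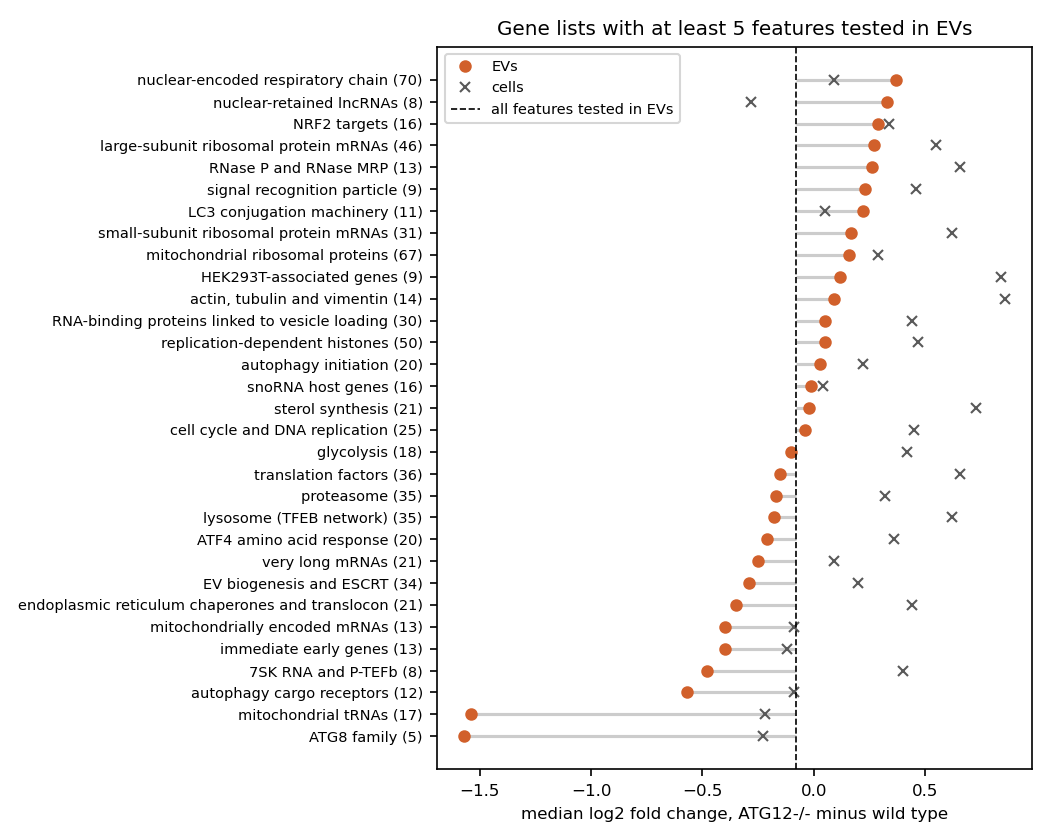
Median log2 fold change (ATG12-/- minus wild type) of the gene lists with at least 5 features tested in EVs, with the number tested; circles are EVs, crosses the same lists in cells, and the dashed line is the median of all features tested in EVs, -0.08. The mitochondrial tRNA list (-1.54) and the LC3 and GABARAP family (-1.57) lie farthest from it. The family median is over 5 genes, among them MAP1LC3B, whose lower mean came from wild-type library 1.

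ATG7-/- EVs share the wild-type controls with the comparison above, so their values are set side by side only. In that comparison 24 of 17076 features were past the threshold (0.141%). SH3D19 had 44738, 40271 and 38978 TPM in ATG7-/- EVs, AD000091.1 had 26480, 26394 and 28257 TPM, and RPPH1 had 4757, 4318 and 3571 TPM, all near the levels of ATG12-/- EVs. AL138963.3 was higher still, at 9114, 8425 and 9510 TPM. MT-RNR2 had 3929, 4174 and 3649 TPM, between the knockout and wild-type levels above. MT-TA had 2428, 1447 and 638 TPM in ATG7-/- EVs.

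A direct test of ATG12-/- against ATG7-/- EVs, which uses no wild-type library in its difference, gave 8 features of 17076 (0.0468%), and 4 of the 18 were among them. The 18 were chosen on the same ATG12-/- libraries, so this overlap supports nothing. MT-TA was lower in ATG12-/- EVs with adjusted p = 0.000187, and AC012309.2, at 46.0, 62.0 and 35.1 TPM in ATG7-/- EVs, with adjusted p = 0.0235. The other 2 were RF00017 on chromosome 13 and AL390061.1, which were listed at 0 in all ATG7-/- EV libraries as well and entered the test through the ATG12-/- libraries alone. The difference between the knockouts was close to 0 for SH3D19 (log2 fold change 0.03, adjusted p = 0.977) and for RPPH1 (0.10, adjusted p = 0.963), which does not show that they were equal. RAB13, at 487, 449 and 457 TPM in ATG7-/- EVs, had a difference of 0.46 with adjusted p = 0.771.

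In cells, ATG12-/- against wild type gave 30 of 22471 features past the threshold (0.134%), and none of the 17 EV features that were tested there was among them. At the cell level MT-TA had 4616, 3991 and 4132 TPM in wild type and 2344, 2487 and 2369 TPM in clone D9, with adjusted p = 0.0938. RPPH1 had 1017, 920.0 and 598 TPM in wild-type cells and 1663, 1818 and 3259 TPM in ATG12-/- cells, the opposite direction from EVs, with adjusted p = 0.176. SH3D19 had 7234, 6562 and 6806 TPM against 10223, 10624 and 9705 TPM, the same direction as in EVs, with adjusted p = 0.138. RAB13 had 6.43, 7.70 and 9.19 TPM in wild-type cells and 3.59, 4.29 and 6.63 TPM in ATG12-/- cells, far below its level in EVs.

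Whether the EV difference itself departed from the cell difference was tested over all 18 libraries, with 66 of 24647 features past the threshold (0.268%). Of the 18 EV features 10 were among them. The 18 were chosen by their difference in the same EV libraries, so this overlap supports nothing. AC008740.1, RF00017 on chromosome 13 and FLJ46906, among the 10, reached 1 TPM in the EV libraries of 1 group only. For MT-TA the EV difference was lower than the cell difference by limma's test with adjusted p = 1.85e-06. For RPPH1 the adjusted p was 0.0155, for AD000091.1 it was 0.000773 and for AL138963.3 it was 0.0235. SH3D19, whose values were higher in both EVs and cells, had adjusted p = 0.0793, and FP671120.3 had adjusted p = 0.435. RAB13 had adjusted p = 0.038 in this test.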

How the data were processed

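The authors deposited 1 table of TPM values for 203027 transcripts in 18 libraries. Salmon 0.14 and DESeq2 are listed in the submitters' processing notes. The sources used here give no build, annotation or strand setting. TPM hold no depth, so counting intervals were not possible. Transcripts were matched by identifier to GENCODE 29 (86 unmatched) and summed to 57865 genes. TPM were scaled by the median of ratios. Features reaching 1 TPM in 3 or more of the 9 EV libraries entered limma 3.58.1 after log2 transformation with a pseudocount of 1 (R 4.3.3, mean-variance trend, no block, all 3 EV genotypes sharing 1 spread), which understates changes of low features. Tests were two-sided with Benjamini-Hochberg adjustment over all features tested. Cells (9 libraries) and the interaction (18 libraries) were fitted likewise. Fits were tested on simulated data. Copies and opposite partners were found with blastn 2.17.0+. Printed TPM are as deposited.

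The members, lists and tests were chosen with earlier results of these data known. Named were ATG12 and ATG7, every feature past the threshold, the 20 next by p with at least 100 TPM, and in each list the 3 smallest p and the 3 highest levels; the text prints some of these, chosen after their values were seen. The other mitochondrial tRNAs, copies and opposite partners were also chosen after values were seen. Alternatives covered pseudocount, filter, scaling, trend and weights, libraries fitted, replicate block, short or mitochondrial RNA left out, and each library left out.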

Additional observations from a re-analysis of the deposited data

Results flagged for a closer look

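For 15 features that were past the threshold in EVs or next to it, the ATG12-/- minus wild-type difference in EVs departed from that in cells by limma's interaction test (adjusted p under 0.05). The features were chosen by their difference in the same EV libraries, so their number supports nothing. The departure, EV difference minus cell difference on the log2 scale, is given for each. It was negative for MT-TA (-9.70), AC008740.1 (-7.13), AC012309.2 (-5.85), AC084125.4 (-5.74), SLC25A44 (-3.96), NCAM1-AS1 (-3.84) and RPPH1 (-2.39). It was positive for ATP5PO (7.92), RF00017 on chromosome 13 (6.46), FLJ46906 (4.82), KCNK1 (4), AC004771.1 (2.10), RAB13 (2.03), AD000091.1 (1.88) and AL138963.3 (1.03). AC004771.1, antisense on chromosome 17, had 94.6, 108 and 66.4 TPM in wild-type EVs and 281, 224 and 255 TPM in ATG12-/- EVs, against 15, 16.3 and 18.7 TPM and 9.35, 19.2 and 14.5 TPM in cells. RAB13 and AC004771.1 were among those whose values were far higher in EVs than in cells. AC008740.1, RF00017 on chromosome 13 and FLJ46906 reached 1 TPM in the EV libraries of 1 group only. Values for features listed at 0 in a group depend on the pseudocount and are no measure of size.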

How the results depend on the processing

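The count of 18 features past the threshold became 27 with a pseudocount of 0.1 TPM, 15 with a filter at 10 TPM and 19 without scaling. It was 16 with upper-quartile scaling and 23 without transcripts under 200 nt. The count fell to 7 with a pseudocount of 5 TPM, 5 with no filter on low values and 4 with array weights and no trend. It was 6 on the 6 libraries of the compared groups alone, and 6 without mitochondrial and small noncoding RNA. Such counts can include features outside the 18. An alternative chosen after seeing the data, no trend with equal weights, gave 8. Leaving out 1 library gave 5 to 18, where 4 of the main 18 were not tested without an ATG12-/- library and 1 was not without a wild-type library. The upper count was not the same 18 features: AL138963.3, MT-RNR2, FP671120.3 and KCNK1 were past the threshold in none of these fits. The causes were not tested. Replicate numbers did not pair the libraries (correlations of deviations -0.0093, -0.0245 and -0.017), and a fit with the replicate number as a block gave 3. Of the 18, MT-TA, SH3D19 and AD000091.1 were each past the threshold in 16 of 18 alternatives: MT-TA was not tested in the other 2, which leave out its class, and the other pair missed the threshold in both fits without a trend, as did MT-RNR2, RPPH1, AL138963.3, LHFPL3-AS2 and FP671120.3. With 1 library left out, the log2 fold change ranged from -0.10 to 0.25 for ATG7, from -2.65 to 0.17 for MAP1LC3B and from -0.21 to 0.06 for GABARAP, and the difference in the antisense share from -0.487 to 0.0158 percentage points, each with a change of sign. The direction of the other 9 class shares held with each library left out. Without transcripts under 200 nt the mitochondrial tRNA class has no value, and the direction of the other 8 held. Depth is unknown, and spread limits scarce and short features most.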
